A study of Mus musculus with 13 samples.

Results

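Antiviral interferon-stimulated genes were examined in sorted regulatory T (Treg) cells and Treg “wannabes”, T cells that transcribe the Foxp3 locus but make no functional Foxp3 protein. Type I interferons bind a receptor made of Ifnar1 and Ifnar2, whose kinases Jak1 and Tyk2 phosphorylate transcription factors such as Stat2. Stat2 joins Irf9 in the complex ISGF3, which binds the interferon-stimulated response element in the promoters of its target genes. The targets encode sensors of foreign nucleic acid, enzymes and GTPases that block viral replication, and regulators that amplify or end the response, and T cells express a basal level of many of them without infection. The members were taken by gene name from a list of 47 such genes in 10 role groups, a rule that itself uses no measured value. Of these, 46 were analysed and 1 was not analysed here, out of 24417 genes in each count table. All 46 passed the filter on low counts in every fit, and 36 of them had a mean above 1000 normalized counts (counts scaled for library size within an experiment) over the male libraries.

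The male experiment held 3 groups of C57BL/6 mice that were all given 4-hydroxytamoxifen once, at postnatal day 14, and were analysed on day 21. Control Treg cells (3 libraries) came from healthy Foxp3 DTR-GFP/y mice with the Cd4 creERT2 allele. Rescued Treg cells (3 libraries) came from Foxp3 LSL/y Cd4 creERT2 mice, in which Cre, active in cells that express Cd4, removes a floxed Thy1.1-STOP cassette and restores Foxp3 as a GFP reporter allele. Male wannabes (2 libraries) came from diseased Foxp3 LSL/y Cd4 wt mice, which were given the same drug but have no Cre and keep the cassette. The female experiment held resting wannabes (3 libraries) from Foxp3 LSL/WT Cd4 wt mice, which also have Foxp3-sufficient Treg cells, and activated wannabes (2 libraries) from Foxp3 LSL/DTR Cd4 wt mice, whose other Treg cells carry the diphtheria toxin receptor. The female mice were treated at 8–10 weeks of age with diphtheria toxin 7, 5, 3 and 1 days before analysis, and their labels give an age of 9–11 weeks. Cells came from pooled spleen and lymph nodes and went through 2 rounds of sorting, Treg cells as GFP+ and wannabes as Thy1.1+ GFP-. Genotype, health of the host and, in the male mice, the control's different Foxp3 allele change together with the groups and cannot be told apart.

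Total counts were 25558402 to 36660933 per library. Foxp3 was at 5466 to 8282 normalized counts in control Treg cells, 28404 to 36480 in rescued Treg cells and 2759.8 to 3280.5 in male wannabes, where the counted transcript is that of the reporter-null allele. None of the 7 T and Treg cell markers checked was at 0 in any group. Replicates correlated at r of 0.966 to 0.993 across genes (log2 CPM, a description over genes). In bulk RNA, a smaller share of cells that express a gene and less RNA per cell cannot be told apart.

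Promoter sequences are shown for Isg15, Rsad2, Oasl1 and the Ifit cluster, genes in which the response element was found or not found. Of the 46 genes, 35 matched by symbol to a RefSeq promoter on GRCm38.p6 that runs from 250 bases before to 50 after the transcription start. The element was searched as GAAANNGAAA on both strands, a string that can overlap itself. It was present in 16 of the 35 (45.7%), against 3.99% of the 27025 genes with a promoter in the table. A match is a string of letters and not a measured binding site. The 16 genes with a match had a median log2 fold change in rescued against control Treg cells of -1.35, and 7 of them were called lower at an adjusted p under 0.05 (0.864% of all genes tested were). The 19 without one, among them Oasl1 and Oasl2, had a median of -0.66, and 5 of them were called lower. The 11 genes that were not searched (Oas2, Mx1, Mx2, Dhx58, Zbp1, Usp18, Parp9, Parp14, Ifi27l2a, Rtp4 and Tor3a) had a median of -1.21, and 5 of them were called lower. Of these 17 calls, 8 were lost without control replicate 2. The stretches below lie before the transcription start and are written from 5′ to 3′ on the coding strand, with each match in capitals. That of Ifit1 ends at position -19, the last base before the GENCODE gene. They show 3 arrangements, overlapping matches in Isg15, separate matches in Ifit1, Ifit3 and Ifit3b, and a single match in Rsad2, while Oasl1 and Ifit2 have none.
Isg15, chr4:156200819-156200938, minus strand, 120 bases: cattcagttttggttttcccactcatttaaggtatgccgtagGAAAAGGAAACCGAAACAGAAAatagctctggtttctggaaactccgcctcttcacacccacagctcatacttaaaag
Ifit1, chr19:34640769-34640870, plus strand, 102 bases: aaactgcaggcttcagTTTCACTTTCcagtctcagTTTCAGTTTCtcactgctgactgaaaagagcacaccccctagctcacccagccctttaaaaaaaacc
Ifit3, chr19:34583329-34583528, plus strand, 200 bases: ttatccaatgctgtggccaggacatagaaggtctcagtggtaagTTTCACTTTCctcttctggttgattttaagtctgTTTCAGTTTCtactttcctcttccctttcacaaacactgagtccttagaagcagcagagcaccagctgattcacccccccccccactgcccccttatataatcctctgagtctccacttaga
Ifit3b, chr19:34607757-34607956, plus strand, 200 bases: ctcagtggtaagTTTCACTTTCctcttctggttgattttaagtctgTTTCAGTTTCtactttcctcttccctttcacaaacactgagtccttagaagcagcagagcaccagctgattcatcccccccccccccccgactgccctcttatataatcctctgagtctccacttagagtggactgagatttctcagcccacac
Rsad2, chr12:26456453-26456602, minus strand, 150 bases: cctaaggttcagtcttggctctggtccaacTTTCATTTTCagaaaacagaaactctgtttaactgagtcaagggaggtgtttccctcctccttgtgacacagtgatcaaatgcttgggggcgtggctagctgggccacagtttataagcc
Oasl1, chr5:114923090-114923239, plus strand, 150 bases: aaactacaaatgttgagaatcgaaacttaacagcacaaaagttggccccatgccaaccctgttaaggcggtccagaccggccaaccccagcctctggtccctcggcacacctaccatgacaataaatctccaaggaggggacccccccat
Ifit2, chr19:34550544-34550693, plus strand, 150 bases: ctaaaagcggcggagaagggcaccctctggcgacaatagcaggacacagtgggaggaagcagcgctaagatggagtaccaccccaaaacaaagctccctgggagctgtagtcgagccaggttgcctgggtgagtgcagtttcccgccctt
The 3 matches of Isg15 start 78, 72 and 66 bases before the transcription start. Those of Ifit1 start 104 and 85 bases before it. The stretches of Ifit3 and Ifit3b were identical at 167 of the 168 bases that align, and their longest coding transcripts at 1663 of 1697, so that reads may have been split between this pair and their separate values are uncertain. Ifit1, Ifit2, Ifit3 and Ifit3b lie together on chromosome 19 between positions 34550694 and 34650009 (GENCODE M21, GRCm38). Ifit2 was the one gene of the cluster whose libraries overlapped between rescued and control Treg cells, whereas those of Oasl1, also without a match, did not. Ifit2 has 2 listed start sites, and the stretch shown is from a single one. Whether a match goes with a lower level in rescued Treg cells was not tested.

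Across the male libraries most antiviral genes were higher in control Treg cells than in rescued Treg cells and male wannabes. The mean over the control libraries was the highest of the 3 male groups for 41 of 46 genes, and the mean over the rescued libraries was the lowest for 34. The same shares over all genes were not computed. Each library was summarized by its mean deviation, the log2 CPM of the 46 genes minus their means over the libraries of the experiment. The mean deviation was 0.27, 1.48 and 0.59 in control replicates 1, 2 and 3. It was -0.73, -0.46 and -0.40 in the rescued replicates and -0.55 and -0.19 in the male wannabes. Every control library thus lay above every other male library, with control replicate 2 far above the rest, while the rescued and wannabe libraries overlapped. The median deviation of all genes tested stayed between -0.06 and 0.04 in these libraries.

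Control replicate 2 was the highest of the 8 male libraries for 43 of the 46 genes. The highest control library was a median of 2.05 times the lowest over these genes, and more than 3 times the lowest for 14 of them. The same ratio had a median of 1.49 in rescued Treg cells and 1.12 in activated wannabes. The median SD between control replicates was 0.54 on the log2 scale for the antiviral genes and 0.29 for all genes tested, whereas in rescued Treg cells it was 0.30 and 0.32. It was 0.28 and 0.37 in male wannabes, 0.27 and 0.17 in resting and 0.11 and 0.09 in activated wannabes, and these differences were not tested. For each comparison that control replicate 2 enters, the number of the 46 genes called without it is given too.

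**Figure D1:**
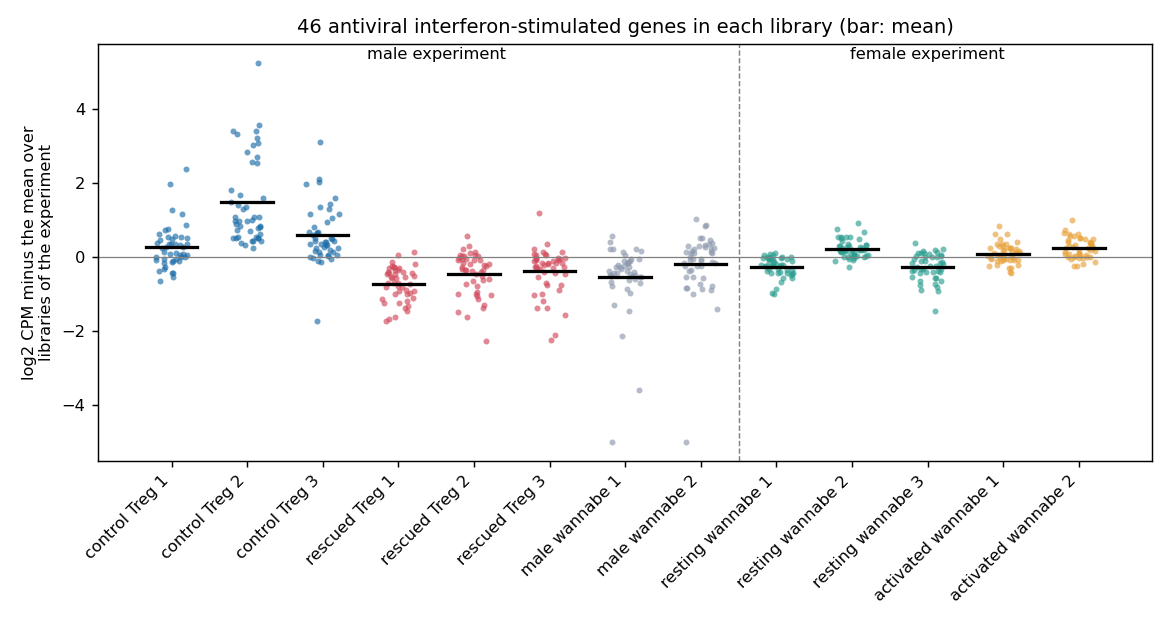
Deviation of each of the 46 genes (points) from its mean over the libraries of its experiment, in log2 CPM, for the 13 libraries; bars are means over the genes. The 3 control Treg libraries sit above the other male libraries, with replicate 2 at a mean of 1.48, and resting replicate 2 sits with the activated wannabes.

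Rescued Treg cells were compared with control Treg cells to ask how cells that regain Foxp3 in an inflamed host differ from those of healthy mice. All 46 genes had a negative log2 fold change, of which that of Dtx3l changed sign under other scalings, and 17 were called lower at an adjusted p under 0.05 (edgeR's quasi-likelihood test, Benjamini-Hochberg over 14925 genes), with 0 called higher. Over all genes tested, 0.864% were called lower and 1.43% higher, which is also the background for the role groups below. The median log2 fold change was -0.90 for the antiviral genes and -0.03 for all genes. In 29 of the 46, every rescued library lay below every control library, which held for 11.5% of all genes tested. Without control replicate 2, 42 genes kept a negative sign (Ifit2, Cmpk2, Eif2ak2 and Dtx3l did not), the median was -0.69 and 9 were called lower, all among the 17, and in 29 the rescued libraries still lay below both other controls (16.9% of all genes). The count was 7, 8 and 7 when rescued replicates 1, 2 or 3 were left out, where 0.278% to 0.423% of all genes were called lower, and it was 0.372% without control replicate 2. DESeq2 called 26 lower, against 3.11% of all genes. Of the 17 genes, Oasl2, Mx2, Ifit1, Usp18 and Ifi208 were called in all 8 fits that left out 1 library, Slfn5 in 7, Rtp4 in 6 and Oas2, Oasl1, Ifit3 and Rsad2 in 5. Mx1 and Ifit3b were called in 4 of these fits, Herc6, Irf7 and Xaf1 in 3 and Trim30a in 2.

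The 2′-5′ oligoadenylate synthetase family, whose members make the activator of RNase L or, in Oasl1 and Oasl2, related proteins, had the lowest median log2 fold change of the 10 groups (-3.84), with 3 of 5 called lower. Oasl2 was at 661, 3289 and 900.3 normalized counts in control replicates 1 to 3 and 124, 81.4 and 132 in the rescued ones. The lowest control library was thus far above the highest rescued one. Its log2 fold change was -3.84 ± 0.60 SE, adjusted p = 0.00964, and -2.79 (adjusted p = 0.0201) without control replicate 2. Oasl1, which restrains translation of Irf7, was at 328, 2419.8 and 550.4 in control and 64.3, 36.2 and 60.7 in rescued Treg cells (log2 fold change -4.35 ± 0.73 SE, adjusted p = 0.0160). Oas2 was at 214, 1260.4 and 461 in control and 70.9, 36.19 and 23.002 in rescued Treg cells (log2 fold change -3.89 ± 0.71 SE, adjusted p = 0.0187). Both were lower in every rescued library, and without control replicate 2 the log2 fold changes of Oasl1 and Oas2 were -3.02 (adjusted p = 0.0468) and -2.95 (adjusted p = 0.0924). Oas3, the family member with the highest mean count, was at 509, 1682 and 1083 in control and 336, 392 and 715 in rescued Treg cells, and these ranges overlapped (log2 fold change -1.18 ± 0.42 SE, adjusted p = 0.185). Oas1a was at 625, 1876 and 1125 in control and 99.3, 128 and 597 in rescued Treg cells, lower in each rescued library but not past the threshold (log2 fold change -2.14 ± 0.73 SE, adjusted p = 0.167). Oas1a has close paralogues in the mouse, and whether reads were shared with them was not tested. Oasl2 and Oasl1 are neighbours on chromosome 5 between positions 114896936 and 114937915.

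Both Mx genes, which encode dynamin-like GTPases that act against viruses where they are intact, were called lower. In C57BL/6 mice both are known to carry inactivating mutations, and GENCODE lists Mx2 as a polymorphic pseudogene, so their values are transcript levels only. Mx2 was at 280.4, 1265 and 517 normalized counts in control and 51.1, 49.1 and 27.6 in rescued Treg cells, with no overlap. Its log2 fold change was -4.01 ± 0.57 SE, adjusted p = 0.00684, and -3.23 (adjusted p = 0.0284) without control replicate 2. Mx1 was at 589, 3009 and 881 in control and 261, 235 and 247 in rescued Treg cells, where the rescued libraries were nearly equal and all control libraries higher. Its log2 fold change was -2.59 ± 0.52 SE, adjusted p = 0.0264, and -1.57 (adjusted p = 0.0669) without control replicate 2. The 2 genes lie on chromosome 16 between positions 97447035 and 97560900.

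The IFIT family, which binds foreign RNA ends, split, with 3 of 4 called lower. Ifit1 was at 3639, 12705 and 5819 normalized counts in control and 870.0, 986 and 1293 in rescued Treg cells. The groups were well apart, and the log2 fold change of -2.82 ± 0.39 SE, adjusted p = 0.00579 had the smallest adjusted p of the 46 genes. It was -2.17 (adjusted p = 0.00813) without control replicate 2. Ifit3, a partner of Ifit1, was at 1255, 13376 and 3186 in control and 551, 479.6 and 617 in rescued Treg cells. Control replicate 2 was here more than 4 times the other controls, and the log2 fold change of -3.44 ± 0.67 SE, adjusted p = 0.0231 became -2.01 (adjusted p = 0.0348) without it. Ifit3b followed the same order at 491, 5672 and 1459 in control and 252, 169 and 181 in rescued Treg cells (log2 fold change -3.66 ± 0.70 SE, adjusted p = 0.0227), and its log2 fold change was -2.28 (adjusted p = 0.0517) without control replicate 2. Ifit2 was at 1437, 3242 and 1977 in control and 1782, 2414 and 1607 in rescued Treg cells, so that the groups overlapped (log2 fold change -0.20 ± 0.33 SE, adjusted p = 0.851).

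The conjugation system of Isg15, a ubiquitin-like protein, was grouped with Trim25. All 4 genes of the group were lower in every rescued than in every control library, where 11.5% of all genes were. Of these, 2 were called, where 0.864% of all genes were. Usp18, the protease that removes Isg15 and dampens Ifnar2 signalling, was at 3236, 12499 and 4687 normalized counts in control and 633, 1043 and 917 in rescued Treg cells. Its log2 fold change was -2.98 ± 0.45 SE, adjusted p = 0.00938, and -2.20 (adjusted p = 0.0145) without control replicate 2. Herc6, the mouse Isg15 ligase, was at 4066, 5931 and 4923 in control and 1501, 3040.2 and 2386 in rescued Treg cells (log2 fold change -1.11 ± 0.25 SE, adjusted p = 0.0443), and -0.96 (adjusted p = 0.173) without control replicate 2. Isg15 itself was at 1138, 3791 and 1641 in control and 545, 836 and 537 in rescued Treg cells, without overlap, and did not pass the threshold (log2 fold change -1.78 ± 0.41 SE, adjusted p = 0.0505, and -1.12, adjusted p = 0.173, without control replicate 2). Trim25 had a log2 fold change of -0.81 ± 0.22 SE, adjusted p = 0.0917.

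Among the transcription factors of the response, Irf7, which drives interferon-α genes and its own amplification, was called lower. It was at 6518, 18991 and 9438 normalized counts in control and 2978, 3422 and 4412 in rescued Treg cells, with every control library above the rescued ones (log2 fold change -1.69 ± 0.36 SE, adjusted p = 0.0339). It was -1.15 (adjusted p = 0.106) without control replicate 2. Irf9 was at 11245, 12852 and 9916 in control and 6651, 7469.8 and 8211 in rescued Treg cells. The groups did not overlap, but the log2 fold change of -0.61 ± 0.16 SE, adjusted p = 0.0811 did not pass the threshold. Stat2 overlapped between the groups at -0.90 ± 0.29 SE, adjusted p = 0.140. The fold changes of these subunits of ISGF3 were thus smaller than that of Irf7, a difference that was not tested.

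Of the direct effectors, 2 of 8 were called lower. Rsad2, which makes a chain-terminating nucleotide that stops viral polymerases, was at 485, 3494 and 932 normalized counts in control and 122, 181 and 144 in rescued Treg cells. All rescued libraries were lower, with a log2 fold change of -3.46 ± 0.62 SE, adjusted p = 0.0180, and -2.25 (adjusted p = 0.0397) without control replicate 2. Slfn5, a Schlafen protein, was at 5168, 10169 and 4902 in control and 1674, 2367 and 2132 in rescued Treg cells, where control replicates 1 and 3 were close to each other and still more than 2 times each rescued library (log2 fold change -1.72 ± 0.28 SE, adjusted p = 0.0114). Cmpk2, which lies beside Rsad2 on chromosome 12 between positions 26442746 and 26479837, was at 1172, 3381 and 1127 in control and 1246, 1678 and 1008 in rescued Treg cells. Its groups overlapped and only control replicate 2 stood out (log2 fold change -0.53 ± 0.40 SE, adjusted p = 0.592, and 0.19 without that library). Adar, the adenosine deaminase that edits double-stranded RNA, was at 8005, 11189 and 8169 in control and 7647, 7872 and 8596 in rescued Treg cells (log2 fold change -0.18 ± 0.17 SE, adjusted p = 0.689). Bst2, or tetherin, which holds budding virions at the membrane, missed the threshold at -1.09 ± 0.26 SE, adjusted p = 0.0607, and the other 3 genes of the group (Isg20, Eif2ak2 and Samd9l) had adjusted p values of 0.214 to 0.653.

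The cytosolic sensors of foreign RNA and DNA were lower by a median log2 of -0.67. Of these, 0 of 4 were called, where 0.864% of all genes were called lower (2 were at an unadjusted p under 0.05 and 1 was called by DESeq2). Zbp1, a sensor of Z-form nucleic acid, was at 7284, 15725 and 10665 normalized counts in control and 5940.2, 8933 and 7887 in rescued Treg cells. The ranges overlapped (log2 fold change -0.57 ± 0.28 SE, adjusted p = 0.359). Ddx58, which encodes RIG-I, was at 5671, 7186 and 5189 in control and 2480.3, 4141 and 4847 in rescued Treg cells, without overlap (log2 fold change -0.66 ± 0.23 SE, adjusted p = 0.187). Ifih1 and Dhx58, the other RIG-I-like receptors, had log2 fold changes of -0.68 and -1.21, neither called.

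In the 3 remaining groups 4 of 16 genes were called lower. Trim30a was at 5899, 7127 and 6547 normalized counts in control and 2515, 4152 and 3782 in rescued Treg cells (log2 fold change -0.91 ± 0.20 SE, adjusted p = 0.0375), with all control libraries higher. Ifi208, a nuclear PYHIN protein, was at 6784, 12615 and 7581 in control and 2795, 3189 and 3464 in rescued Treg cells. Its log2 fold change of -1.52 ± 0.23 SE, adjusted p = 0.00902 passed the threshold whichever library was left out. Rtp4, a chaperone of receptors, was at 3503, 5835 and 4954 in control and 860.5, 1860.0 and 1802 in rescued Treg cells (log2 fold change -1.66 ± 0.29 SE, adjusted p = 0.0169). Xaf1, a pro-apoptotic zinc finger protein, was at 2276, 3469 and 2627 in control and 1283, 1406 and 1148 in rescued Treg cells (log2 fold change -1.13 ± 0.21 SE, adjusted p = 0.0192), again with every control library higher. Trim30a, Rtp4 and Xaf1 were no longer called without control replicate 2, at -0.84 (adjusted p = 0.149), -1.49 (adjusted p = 0.0728) and -0.94 (adjusted p = 0.0924). The genes with the smallest differences were Dtx3l at 7776, 13662 and 9430.3 in control and 8966, 10401 and 11184 in rescued Treg cells (log2 fold change -0.02 ± 0.20 SE, adjusted p = 0.983), Epsti1 and Adar. Dtx3l changed sign under other scalings and without control replicate 2, so no direction is given for it. Its exons overlap those of Parp9 on the opposite strand by 458 bases. It is 1 of 13 members with an exonic overlap with another gene on either strand. The strand setting of the counting is not given in the sources used here. Sp100, a nuclear body protein with the highest counts of all members, was at 32421, 34670 and 32864 in control and 19358, 24210 and 24554 in rescued Treg cells. These libraries did not overlap and were close within groups, but the change did not pass the threshold (log2 fold change -0.55 ± 0.13 SE, adjusted p = 0.0525). Daxx, Parp9, Ifi27l2a and Lgals3bp had log2 fold changes of -0.74, -0.35, -0.65 and -0.37, none called. Parp14, Phf11b, Ifi35 and Tor3a had -0.53, -0.30, -0.66 and -0.30, also not called. Ifi44 was near the limit of counting in some libraries, at 48.2, 107 and 1.89 in control and 3.78, 10.3 and 10.1 in rescued Treg cells.

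**Figure D2:**
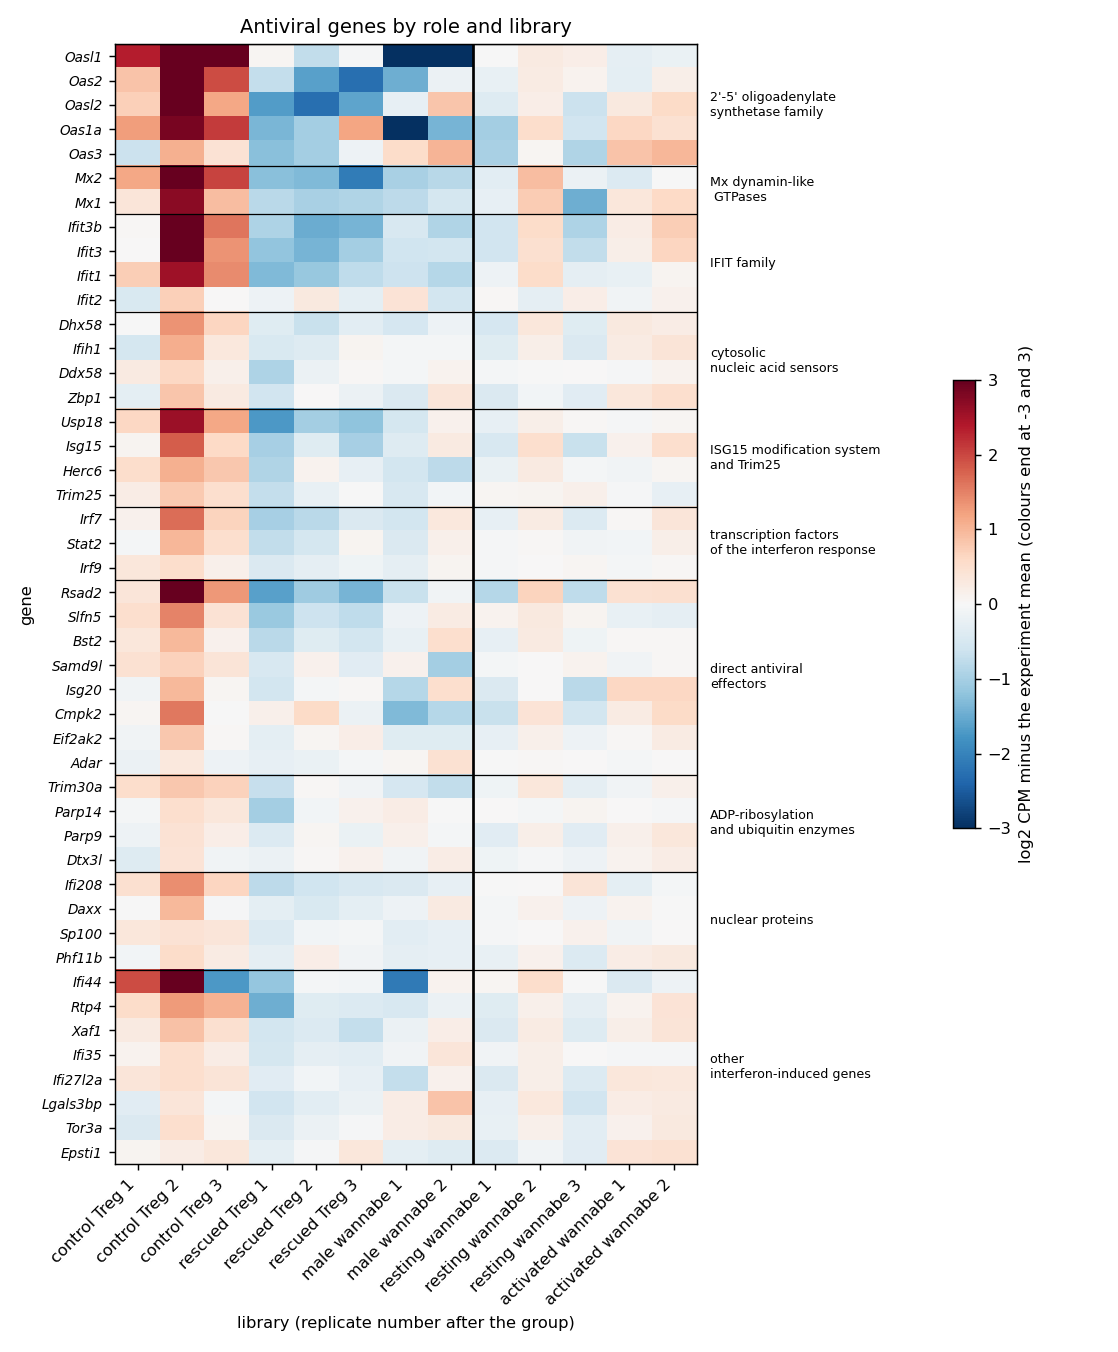
Heat map of the 46 genes (rows, by role and then by change in rescued Treg cells) in 13 libraries (columns), as log2 CPM minus the mean over the experiment's libraries, with colours ending at -3 and 3. Oasl1, Oas2, Oasl2, Mx1, Mx2, Ifit1, Ifit3, Ifit3b, Usp18 and Rsad2 are highest in control replicate 2 and lower in every rescued than in every control library, while Ifit2 and Oas3 overlap between these groups.

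**Figure D3:**
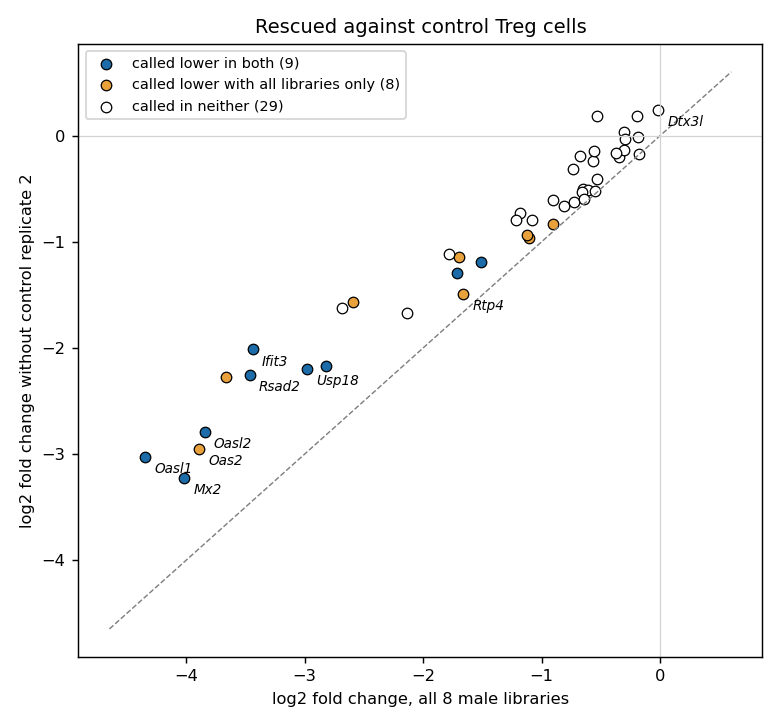
Log2 fold change of rescued against control Treg cells for each of the 46 genes with all 8 male libraries (x axis) and without control replicate 2 (y axis). The 9 genes called in both are blue, the 8 called with all libraries only are orange, 29 are called in neither, and nearly all points lie above the dashed line of equality, where the falls are smaller.

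Control Treg cells were next compared with male wannabes, the Foxp3-deficient cells of diseased males. Of the 46 genes, 16 were called higher in control Treg cells and 0 lower, where 9.92% of all genes tested were called higher and 6.27% lower. The median log2 fold change was 0.74 for the antiviral genes and 0.09 for all genes, and 27 genes had every control library above both wannabe libraries, which held for 25.3% of all genes. Oasl1 was listed at 0 counts in both male wannabe libraries, where 3 counts per library is the floor, and was thus at least 363-fold higher in control (at least 145-fold without control replicate 2) and at least 17.7-fold higher in rescued Treg cells. It was at 313, 377 and 359.7 normalized counts in resting and 260.2 and 271 in activated wannabes of the female mice, so the wannabes of that experiment did express it. Oas1a was at 19.7 and 97.2 in male wannabes against 625, 1876 and 1125 in control Treg cells (log2 fold change 4.38 ± 0.97 SE, adjusted p = 0.0115). Mx2 was at 62.9 and 69.1 (log2 fold change 3.38 ± 0.65 SE, adjusted p = 0.00592) and Ifit1 at 1409.5 and 1206 (log2 fold change 2.50 ± 0.45 SE, adjusted p = 0.00420), both far below every control library. Trim30a (log2 fold change 1.30 ± 0.23 SE, adjusted p = 0.00388), Herc6 (log2 fold change 1.49 ± 0.29 SE, adjusted p = 0.00619) and Ifi208 (log2 fold change 1.23 ± 0.26 SE, adjusted p = 0.00876) were also called higher in control Treg cells, and these 3 kept that call whichever library was left out. Without control replicate 2, 10 were called higher (7.18% of all genes), and without male wannabe replicates 1 or 2, 9 and 10 (7.92% and 7.46%).

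Rescued Treg cells and male wannabes were compared last among the male groups. Of the 46, 3 were called lower in rescued Treg cells and 1, Oasl1, higher, where 4.06% of all genes tested were called lower and 10.0% higher. The median log2 fold change was -0.27 for the antiviral genes and 0 for all genes. Oas3 was at 1177 and 1627 normalized counts in male wannabes and 336, 392 and 715 in rescued Treg cells (log2 fold change -1.54 ± 0.45 SE, adjusted p = 0.0450). Oasl2 was at 338 and 715 in male wannabes and 124, 81.4 and 132 in rescued Treg cells (log2 fold change -2.22 ± 0.60 SE, adjusted p = 0.0313). In both, the wannabe libraries were above every rescued library. Lgals3bp, a secreted glycoprotein, was at 9760.1 and 15299 in male wannabes and 5616, 6721 and 7467 in rescued Treg cells (log2 fold change -0.92 ± 0.24 SE, adjusted p = 0.0252). Without control replicate 2, 5 were called lower and 2 higher (3.16% and 9.36% of all genes). The 3 lower calls were lost when male wannabe replicate 2, rescued replicate 1 or rescued replicate 2 was left out. Control Treg cells enter both of the first comparisons and male wannabes both of the last ones, so the 3 are not independent of each other.

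Activated wannabes were compared with resting wannabes to ask what inflammation does to cells that have no Foxp3 protein. Of the 46 genes, 4 were called higher and 1 lower, where 11.3% of all genes tested were called higher and 11.2% lower. The median log2 fold change was 0.24 for the antiviral genes and -0.01 for all genes, and 31 of 46 were positive. Oas3 was at 733, 1507 and 773 normalized counts in resting replicates 1 to 3 and 2604 and 2878 in activated wannabes (log2 fold change 1.44 ± 0.31 SE, adjusted p = 0.0205). Zbp1 was at 4247, 5459.9 and 4535 in resting and 7327 and 8212 in activated wannabes (log2 fold change 0.71 ± 0.12 SE, adjusted p = 0.0104). In each of these, both activated libraries exceeded all resting ones. Isg20, an exonuclease that degrades single-stranded RNA, was at 1045, 1412 and 805 in resting and 2163 and 2159.9 in activated wannabes (log2 fold change 0.99 ± 0.22 SE, adjusted p = 0.0226). Epsti1 was at 2998, 3699 and 3124 in resting and 5271 and 5512 in activated wannabes (log2 fold change 0.72 ± 0.11 SE, adjusted p = 0.00611). Slfn5 was the gene called lower, at 1427, 1629 and 1402 in resting and 1138 and 1106 in activated wannabes (log2 fold change -0.41 ± 0.11 SE, adjusted p = 0.0380).

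The other differences in the female libraries did not pass the threshold. Oasl2, Ifit3b, Rsad2, Ifit3, Cmpk2, Ifi27l2a and Mx1 had log2 fold changes of 0.67, 0.67, 0.61, 0.60, 0.60, 0.52 and 0.52, with adjusted p values of 0.0917 to 0.529. Oas1a was at 381, 1110.1 and 516 normalized counts in resting and 1189.6 and 1054 in activated wannabes, and resting replicate 2 overlapped the activated range (log2 fold change 0.74 ± 0.42 SE, adjusted p = 0.240). Mx2 was at 109, 260.5 and 120.2 in resting and 102 and 137 in activated wannabes, where again resting replicate 2 was the highest library (log2 fold change -0.46 ± 0.43 SE, adjusted p = 0.475). Ifi44 was at 192, 264 and 181 in resting and 134 and 165 in activated wannabes (log2 fold change -0.50 ± 0.25 SE, adjusted p = 0.184). Resting replicate 2 was the highest resting library for 38 of the 46 genes, with a mean deviation of 0.22 against -0.27 in each of the other resting libraries and 0.08 and 0.24 in the activated ones. Without resting replicate 2, 22 genes were called higher (12.7% of all genes) and 1 lower (12% of all genes), with a median of 0.32. The median was 0.32 without activated replicate 1 and 0.12 without activated replicate 2, fits that leave 1 library in that group. The number of antiviral genes called higher in activated wannabes therefore depends on resting replicate 2.

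The change in Treg cells, rescued minus control, was then tested against the change in wannabes, activated minus resting, as 1 contrast over all 13 libraries. All 46 genes had a lower value in the Treg change, with a median difference of -1.15 on the log2 scale against -0.03 for all genes. Of these, 11 were called, all lower, where 0.730% of all genes tested were called lower and 0.803% higher. The 11 were Oas2, Oasl1, Oasl2, Mx2, Ifit1, Ifit3, Ifit3b, Usp18, Rsad2, Rtp4 and Xaf1. Oasl2 differed most: its log2 fold change was -3.84 in Treg cells and 0.67 in wannabes, a difference of -4.50 ± 0.77 SE, adjusted p = 0.0123. For Usp18 the changes were -2.98 and 0.02, a difference of -2.99 ± 0.58 SE, adjusted p = 0.0216. Without control replicate 2, 6 genes were called lower (0.714% of all genes), and without it and resting replicate 2 together, an alternative chosen after seeing the data, 9 were called lower (0.507% of all genes), 44 were negative and the median was -0.99. Leaving out single libraries gave 0 to 14 calls (0.114% to 1.17% of all genes called lower), with 0 without activated replicate 2 and 1 without activated replicate 1 or resting replicate 1. The experiments differ in sex, age and treatment, which cannot be told apart from the cell type here.

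**Figure D4:**
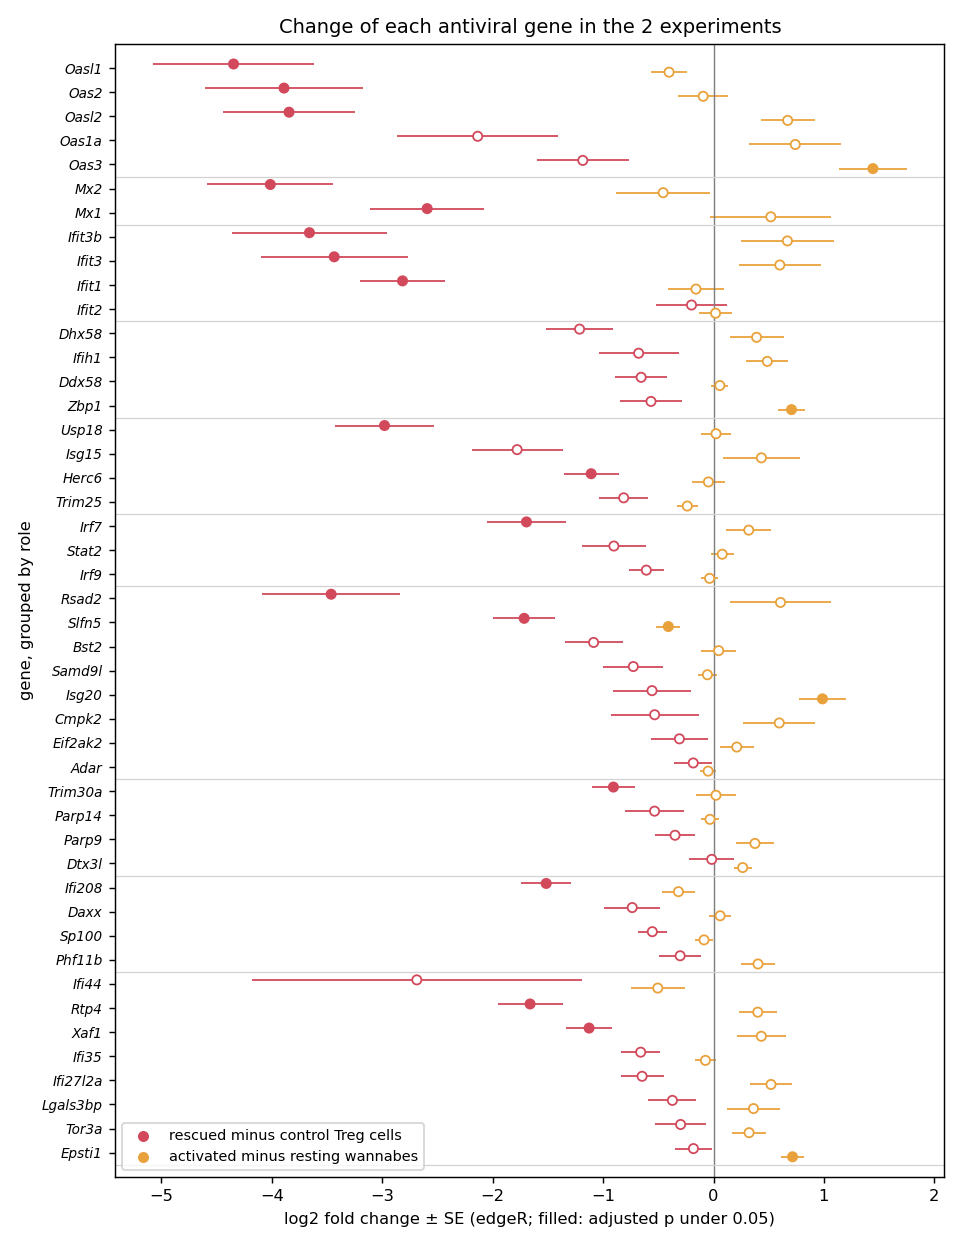
Log2 fold change with its standard error for each of the 46 genes, in rescued against control Treg cells (red) and activated against resting wannabes (orange); filled points passed an adjusted p under 0.05 in edgeR. All red points lie below 0 (Dtx3l, at -0.02, changed sign under other scalings), with Oasl1, Mx2, Oas2, Oasl2, Ifit3b, Rsad2 and Ifit3 below -3, while the orange points lie between -0.50 and 1.44.

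The upstream pathway was examined as a list of its own. Of 56 pathway genes (ligands, receptors, kinases, transcription factors, inhibitors and inducers of interferon), 34 were tested in the male libraries, and 1 was called lower and 0 higher in rescued against control Treg cells (0.864% and 1.43% of all genes tested), with a median log2 fold change of -0.01. DESeq2 called 2 lower and 2 higher, where it called 452 and 742 of the 14925 genes tested. Of 20 type I and type III interferon genes, 17 were at 0 counts in all 13 libraries and no library had more than 17 counts of any of them, where 3 counts per library is the floor. Tlr7, an endosomal sensor of RNA, was the gene called lower, at 1248, 1353 and 757 normalized counts in control and 372, 202 and 199 in rescued Treg cells (log2 fold change -2.12 ± 0.35 SE, adjusted p = 0.0114). Ifnar1 and Ifnar2, the receptor chains, had log2 fold changes of -0.37 and -0.54, neither called. In control Treg cells against male wannabes 7 of 34 pathway genes were called higher and 2 lower, where 9.92% and 6.27% of all genes were, and in rescued Treg cells against male wannabes 9 and 3, where 10.0% and 4.06% were. Ifnar2 was at 4582, 7149 and 5638 normalized counts in control Treg cells, 3709, 3932 and 4327 in rescued Treg cells and 1409.5 and 2209 in male wannabes. The wannabe libraries were below all others, with log2 fold changes of 1.68 for control and 1.14 for rescued Treg cells against them. In activated against resting wannabes 6 of 33 pathway genes were called higher and 2 lower (11.3% and 11.2% of all genes), among the former Ifngr1 (log2 fold change 0.85 ± 0.11 SE, adjusted p = 0.00312) and Jak2 (log2 fold change 0.96 ± 0.22 SE, adjusted p = 0.0257).

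Related genes outside the members moved in part with them. Of 26 paralogues tested, 2 were called lower in rescued against control Treg cells, where 0.864% of all genes were (Slfn1, log2 fold change -1.16 ± 0.18 SE, adjusted p = 0.00964, and Ifit1bl1, log2 fold change -1.81 ± 0.38 SE, adjusted p = 0.0316), and their median was -0.60. Of 23 other interferon-induced genes, 4 were called lower (Trim12a, Trim12c, Trim34a and Ddx60) and 1 higher, where 1.43% of all genes were called higher. The latter was Ly6a, an activation antigen, at 6602, 10276 and 7806 normalized counts in control and 16583, 22738 and 21434 in rescued Treg cells (log2 fold change 1.30 ± 0.26 SE, adjusted p = 0.0252), which also rose in activated wannabes from 1453, 1924 and 2048 to 13554 and 12439 (log2 fold change 2.84 ± 0.15 SE, adjusted p = 0.000273). Of 18 genes induced mainly by interferon-γ (guanylate-binding proteins, immunity-related GTPases and antigen processing), 0 were called in the Treg comparison. Over all genes 0.864% were called lower and 1.43% higher, so that a count of 0 is near these shares. Of the 18, 1 was at an unadjusted p under 0.05 and 0 were called by DESeq2, and their median was 0.08. In activated wannabes 8 of these were called higher, where 11.3% of all genes were, such as Psmb9 (log2 fold change 0.81 ± 0.08 SE, adjusted p = 0.00136) and Tap1 (log2 fold change 0.70 ± 0.08 SE, adjusted p = 0.00207), and Gbp2b was called lower (log2 fold change -1.93 ± 0.15 SE, adjusted p = 0.000644).

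Of the 4 interferon-induced transmembrane genes, which block viral fusion, 2 were called higher in rescued against control Treg cells and 0 lower, where 1.43% and 0.864% of all genes were. Ifitm2 was at 96.3, 235 and 158 normalized counts in control and 953, 601 and 427 in rescued Treg cells (log2 fold change 2.01 ± 0.36 SE, adjusted p = 0.0176). It was at 3709 and 3738 in male wannabes, 61.0, 66.1 and 45.6 in resting and 3991 and 4123 in activated wannabes (log2 fold change 6.13 ± 0.16 SE, adjusted p = 6.28e-05), so that every rescued and male wannabe library was above every control library and each activated library above every resting one. Ifitm1 was at 0 counts in all control Treg libraries and at 79.4, 14.2 and 30.4 in rescued Treg cells, at least 14.1-fold higher by the floor of 3 counts, or at least 7.62-fold without rescued replicate 1. All 4 of these genes were called higher in activated wannabes, where 11.3% of all genes were.

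Markers of other cell types were low next to those of T cells. The summed normalized counts of 6 monocyte and macrophage markers were 11.8 to 42.8 in control, 125 to 238 in rescued Treg cells and 106 to 190 in male wannabes, against 130800 to 178200 for the 7 T and Treg cell markers in the Treg cells. Of the 4 plasmacytoid dendritic cell markers, a cell type known for interferon production, Siglech was at 0 in all 8 male libraries, and nearly all of the sum came from Pacsin1. This sum was 3704, 5128 and 4034 in control, 2683, 3366 and 2919 in rescued Treg cells and 2088 and 2907 in male wannabes. It was thus higher in every control library than in every other male library and highest in control replicate 2, as the mean of the antiviral genes was, whereas Klk1 and Cox6a2 were near or at 0. The sums of the 4 NK cell markers were 20.02 to 45.39 in control and 114 to 273 in rescued Treg cells, with Klra8 at 0 in both. Those of B cells (6 markers) were 1051 to 1300 and 1251 to 1404, and those of 5 conventional dendritic cell markers were 29.3 to 63.2 and 71.1 to 122, with Clec9a at 0 in both. In male wannabes the NK, B and conventional dendritic cell sums were 160 to 288, 1134 to 1450 and 138 to 241. The 2 CD8 T cell markers summed to 401 to 825 in control, 587 to 654 in rescued Treg cells and 595 to 914 in male wannabes. Those of 5 neutrophil markers were 0 to 18.2, 0 to 12.3 and 9.7 to 66.7 in these groups. Those of 4 erythroid markers were 86.45 to 222, 63.35 to 260 and 111 to 388. The monocyte, NK cell and conventional dendritic cell sums were thus higher in every rescued than in every control library, where the antiviral genes were lower. The part of these marker lists, Pacsin1 included, in the result was not tested.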

How the data were processed

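The deposited data were 1 count table of 8 male and 1 of 5 female RNA-seq libraries, made in bulk from sorted cells. The authors amplified total RNA (SMART-Seq v4), aligned reads with STAR 2.7.3a to GRCm38, realigned them locally and counted reads per gene in R, so the deposited values are raw counts with no normalization. The gene annotation and the strand setting are not given in the sources used here. The 4 entries without a gene name, at most 0.00841% of a library, were left out. Total counts were 25558402 to 36660933, and 3 counts, used as the floor, were 8.18e-06 to 1.17e-05 percent of a library, which covers counting error only since reads carry no molecular identifiers.

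Counts were tested in R 4.3.3 with edgeR 4.0.16 (TMM, filterByExpr by group, quasi-likelihood test, Benjamini-Hochberg over all genes tested, with 0.05 as the threshold for a call). Separate fits were made for the 8 male libraries (14925 genes, biological coefficient of variation 0.510) and the 5 female libraries (13166 genes, 0.171), and the difference of changes was fitted over all 13 libraries (15201 genes). No p was computed for the list as a whole. Normalized counts were scaled by TMM library size within each experiment, and a prior count of 2 entered log2 CPM. The functions were checked on simulated counts. Alternatives were leaving out each library, a replicate block, only the groups compared, a stricter filter (mean above 100 normalized counts) or none, DESeq2 1.42.0 and DESeq2's size factors within edgeR. Samples of a group are called biological replicates by the study, so p-values measure the spread between these mice.

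The members and all other gene lists were chosen with earlier results of these data known, although the rule for the members uses names only. Genes given library by library were the 2 members of each role group with the highest mean count in the male libraries, the 6 largest falls and 3 smallest falls in rescued Treg cells and the 3 largest rises and falls in activated wannabes (means above 20), and called genes. Isg15, Ifit2, Ifih1, Dhx58, Cmpk2 and the other members named were added to account for every member, and Ifnar1 and Ifnar2 were chosen after their values were seen. Coordinates come from GENCODE M21 and promoters from RefSeq.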

Additional observations from a re-analysis of the deposited data

Results flagged for a closer look

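The change in Treg cells (rescued minus control) differed from the change in wannabes (activated minus resting) for 11 of the 46 genes, by a test of the difference itself in edgeR over 13 libraries. All 11 differences were negative. On the log2 scale the Treg minus the wannabe change was -4.50 for Oasl2 (adjusted p = 0.0123), -2.99 for Usp18 (0.0216), -2.05 for Rtp4 (0.0256), -2.64 for Ifit1 (0.0286), -1.55 for Xaf1 (0.0309) and -3.55 for Mx2 (0.0362). It was -4.05 for Rsad2 (adjusted p = 0.0413), -4.31 for Ifit3b (0.0457), -3.93 for Oasl1 (0.0457), -4.02 for Ifit3 (0.0471) and -3.79 for Oas2 (0.0471). Oasl2 kept its call in 12 of 13 fits that left out a library, Usp18 in 9, Ifit1 and Rtp4 in 7, Rsad2 in 6, Oasl1 and Xaf1 in 5, and Oas2, Mx2, Ifit3 and Ifit3b in 4. The groups here have 2 or 3 libraries, too few for a check of single outlying values, and sex, age and treatment differ between the experiments and cannot be told apart from the cell type.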

How the results depend on the processing

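The direction of the median of the antiviral genes was the same under every alternative run for all 5 comparisons. With DESeq2, 26 genes were called lower in rescued against control Treg cells (3.11% of all genes). It called 2 higher in rescued Treg cells against male wannabes, where 2066 of all 14925 genes tested were. Another 7 were called higher in activated wannabes (1845 of 13166 genes) and 21 lower in the difference of changes (377 of 15201 genes). Shares over all genes were not computed for the filter, group and block alternatives that follow. With no filter, 3 were called higher in rescued Treg cells against male wannabes and 0 lower in activated wannabes. With only the groups compared, 2 were called higher in rescued Treg cells against male wannabes. Replicate numbers did not pair the samples, since deviations of samples with the same number correlated at -0.0292 to 0.0844 across genes. With them as a replicate block, 1 gene was called lower in control Treg cells against male wannabes, 2 higher in rescued Treg cells against male wannabes, 0 lower in activated wannabes and 7 lower in the difference. In rescued against control Treg cells, Dtx3l turned to 0.00045 with DESeq2, 0.00028 with its size factors, 0.043 with a mean normalized count over 100, 0.014 with the replicate block, and spanned -0.18 to 0.24 when each library was left out. Mx2 in activated wannabes spanned -0.69 to 0.052.

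When each library was left out in turn, calls lower in rescued against control Treg cells ranged from 7 to 24. In control Treg cells against male wannabes, calls higher ranged from 9 to 17 and lower from 0 to 1. In rescued Treg cells against male wannabes, calls lower ranged from 0 to 5 and higher from 1 to 2. In activated wannabes, calls higher ranged from 0 to 22, lower from 0 to 1 and the median from 0.12 to 0.32. In the difference, calls lower ranged from 0 to 14 and the median from -1.37 to -0.85. Where leaving out a library leaves 1 sample in a group, that sample is assumed to vary like the others, and calls from such fits are not in these ranges. The cause of these shifts was not tested.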

Other observations

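Outside the list, the 10 genes whose log2 CPM followed the mean of the antiviral genes most closely over the 8 male libraries, among 14879 genes ranked, had Pearson's r of 0.951 to 0.970, given as a description since the libraries share groups and control replicate 2 weighs heavily. Of these, Ifit1bl1 and BC147527 passed the threshold in rescued against control Treg cells, with log2 fold changes of -1.81 (adjusted p = 0.0316, edgeR) and -0.94 (adjusted p = 0.0286). Trim21, an intracellular antibody receptor, Phf11d and Parp11, which are relatives of listed genes, and Piezo2, Bahcc1, Bend4, Rangrf and Cacng7 did not pass it. Without control replicate 2 the r of the 10 genes lay between 0.854 and 0.967 over 7 libraries.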
